A study of Mus musculus with 6 samples.

Results

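Homeobox genes encode transcription factors that bind DNA through a homeodomain, and the families taken here were chosen by gene name alone: HOX, Dlx, Six2 to Six6, Irx, Meis, Pbx, Lhx, Lmx1, Hmx, Otx, Gbx, Emx, Barx, Tgif, Tshz, Zfhx, Pou, Prrx, Pitx, Nkx, Cux, Satb, Zeb, Hhex and Hopx. The rule found 63 of the 15016 genes in the deposited table. RNA-seq was measured in wild-type mouse organoids grown from cochlear progenitor cells, with 3 libraries from stiff gels and 3 from soft gels. Both groups were expanded in the same medium and then differentiated with CHIR99021, which activates Wnt signalling by inhibiting GSK3, and LY411575, which lowers Notch signalling by inhibiting gamma-secretase. The gels, hydrogels of modified gelatin and hyaluronic acid with an RGD peptide, differed in stiffness at the differentiation stage. The question is whether hydrogel stiffness changes gene expression in these cells. The stiffness values, the time in the gels, the age of the donor mice and the origin of the numbered replicates (separate cultures or not) are not given by the labels, so the spread behind each p-value is that of these libraries and may be technical.

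In the inner ear, homeobox factors act in layers. Members such as Hmx3, Lmx1a, Dlx5 and Gbx2 help to pattern the otic vesicle, SINE factors work with EYA proteins in the sensory lineage, Pou4f3 acts in hair cells, and Pou3f4 and Prrx1 mark the mesenchyme around the epithelium. TALE factors of the Meis and Pbx families bind DNA together with other homeodomain proteins, while the zinc finger factors Zeb1 and Zeb2 repress epithelial genes.

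Of the 42 homeobox genes with enough signal to test, 2 differed between the gels past the threshold. Six2, which keeps progenitors undifferentiated in kidney mesenchyme, was higher in stiff gels, and Zeb2, a repressor of epithelial genes that also acts in neural crest and glia, was lower. The test was limma on log2(FPKM + 1), where FPKM is a level per transcript length and sequencing depth, with Benjamini-Hochberg adjustment over all 11780 genes that averaged at least 1 FPKM in either group. Of the 42 members that passed this filter, 2 were called at an adjusted p under 0.05 (4.76%), against 5.81% of all tested genes. Higher calls made up 3.13% and lower calls 2.68% of all tested genes, and the members had 1 of each. At an unadjusted p under 0.05 there were 10 members (23.8%), against 21.7% of all tested genes. The members' shares were therefore near those of all genes. The median log2 fold change was -0.02 over the tested members and 0.03 over all tested genes, and the median absolute log2 fold change was 0.14 and 0.09.

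The windows just before the start sites of the 2 called genes are shown here because these genes went in opposite directions. They are the 250 bases before the RefSeq start (build GRCm38.p6, the genome assembly also called mm10), for Six2 at chr17:85688255-85688504 on the minus strand and for Zeb2 at chr2:45117443-45117692 on the minus strand, the most distal of its 4 RefSeq starts. Capitals mark the letters CCAAT or, on the other strand, ATTGG.
Six2: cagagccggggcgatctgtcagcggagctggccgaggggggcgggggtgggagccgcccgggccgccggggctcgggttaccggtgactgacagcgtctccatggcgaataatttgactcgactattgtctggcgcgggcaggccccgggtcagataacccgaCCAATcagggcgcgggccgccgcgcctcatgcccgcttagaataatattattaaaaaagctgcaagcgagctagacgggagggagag
Zeb2: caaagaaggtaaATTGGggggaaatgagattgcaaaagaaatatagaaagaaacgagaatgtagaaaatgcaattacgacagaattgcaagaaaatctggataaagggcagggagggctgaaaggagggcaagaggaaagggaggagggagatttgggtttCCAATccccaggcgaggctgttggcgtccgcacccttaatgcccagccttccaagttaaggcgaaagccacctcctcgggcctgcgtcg
The Six2 window was 64.8% G and C and the Zeb2 window 49.6%. CCAAT began at position -87 in the Six2 window and at -89 in the Zeb2 window, counted from the start site, with a copy on the other strand at -238 for Zeb2. The strand of the Six2 window was checked against a transcript, while that of the Zeb2 window was not and is as the RefSeq table gives it. Such a match was present in 33.8% of the 32851 promoter windows in the RefSeq table. Letters for a TEAD core (GGAATG), a TCF/LEF core (CTTTGA), a ZEB box (CACCTG) and a homeodomain core (TAATTA), searched on both strands, were found in neither window, while 12.6%, 13.8%, 17.2% and 4.84% of all windows held them. No overlap between motifs occurred in these windows, and a match of letters is a description, not a binding site.

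Among the SINE class, Six2 (chromosome 17, 85662736 to 85688254) had 9.57, 8.05 and 8.25 FPKM in stiff gels, against 5.52, 5.21 and 5.49 FPKM in soft gels. Every stiff library lay above every soft library, and the soft libraries were close to each other. The mean was 8.63 ± 0.83 FPKM in stiff gels and 5.41 ± 0.17 FPKM in soft gels (SD, n = 3 each), and the log2 fold change was 0.58 ± 0.08 SE (adjusted p = 0.00918 by limma). The values rest on 292 to 375 reads per library in stiff gels and 205 to 216 in soft gels, as rebuilt from the FPKM. The authors' deposited table gives a log2 fold change of 0.65 for Six2 (q = 0.000309). Six2 stayed called in 11 of 12 other fits and just missed the threshold without soft replicate 2 (limma adjusted p = 0.0516).

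The other SINE genes were not called. Six4 (chromosome 12), a factor of muscle and sensory placodes, had 17.0, 16.3 and 16.6 FPKM in stiff gels and 15.6, 14.5 and 13.9 FPKM in soft gels. These groups did not overlap, but the difference was small, with 0.17 ± 0.06 SE on the log2 scale (adjusted p = 0.172 by limma). Six5 had 5.81, 5.05 and 5.97 FPKM in stiff gels and 5.73, 4.82 and 3.64 FPKM in soft gels, with overlap. The ratio of Six2 to Six4 within a library was 0.565, 0.495 and 0.498 in stiff gels and 0.353, 0.360 and 0.395 in soft gels, so the 2 SINE genes stood in a different proportion in the 2 gels. Six3 and Six6 were not analysed here.

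**Figure D1:**
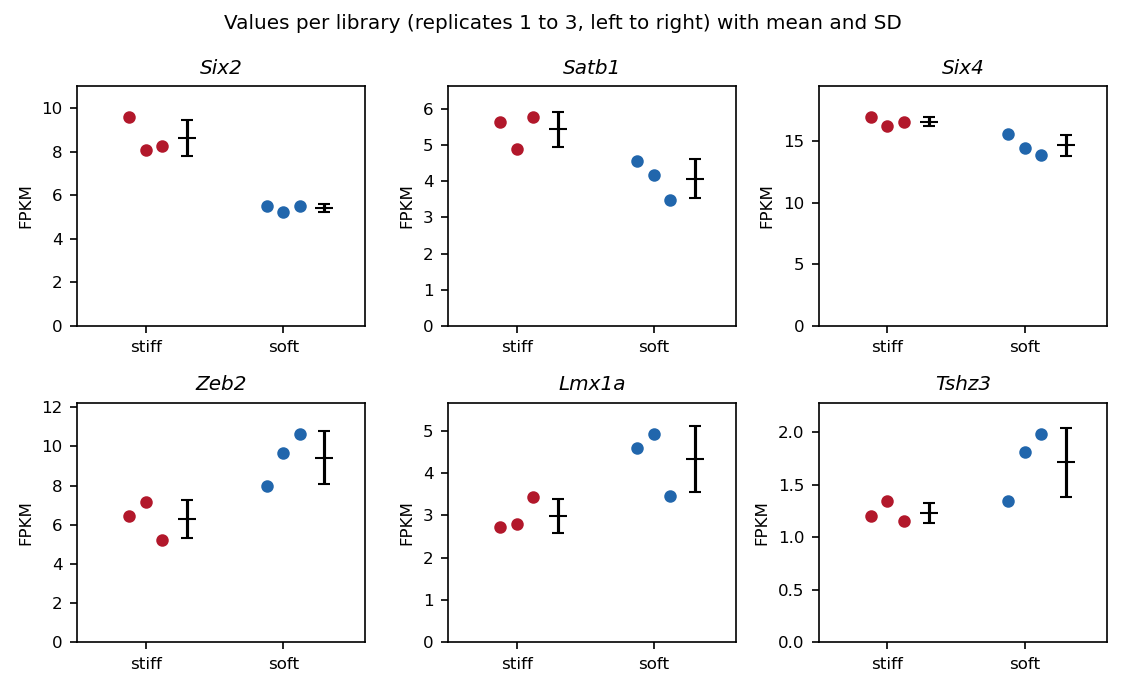
FPKM of 6 homeobox genes in each library (points; stiff gels in red, soft gels in blue) with the mean and SD of each group (n = 3) beside them, on axes that start at 0. Six2 has stiff values from 8.05 to 9.57 FPKM, all above the soft values of 5.21 to 5.52 FPKM, and Zeb2 has stiff values from 5.24 to 7.18 FPKM, all below the soft values of 7.99 to 10.6 FPKM.

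In the zinc finger class, which had 8 of 8 annotated members in the table and all 8 tested, Zeb2 fell and the other 7 were not called. Zeb2 (chromosome 2, 44983512 to 45117442) had 6.46, 7.18 and 5.24 FPKM in stiff gels, against 7.99, 9.63 and 10.6 FPKM in soft gels. The groups did not overlap, and soft replicate 1 was the soft library nearest to the stiff ones. The mean was 6.30 ± 0.98 FPKM in stiff gels and 9.42 ± 1.34 FPKM in soft gels (SD, n = 3 each), and the log2 fold change was -0.52 ± 0.12 SE (adjusted p = 0.0441 by limma). The authors' deposited table gives -0.61 for Zeb2 (q = 0.000147). The call held in 6 of 12 other fits and was lost without soft replicate 2 or 3, without stiff replicate 1 or 3 (limma adjusted p up to 0.148), without the filter on low values (0.0763) and with the replicate number as a block (0.0518). Without soft replicate 1 it was clearer (0.00793).

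Zeb1, the paralogue of Zeb2 (chromosome 18), had 1.41, 1.499 and 1.34 FPKM in stiff gels and 1.29, 1.44 and 1.71 FPKM in soft gels, with stiff values inside the soft range. Its log2 fold change was -0.03 with a 95% interval from -0.25 to 0.18. The ratio of Zeb2 to Zeb1 was 4.57, 4.79 and 3.91 in stiff gels and 6.21, 6.70 and 6.21 in soft gels. Tshz3, a teashirt factor of muscle and neuron development (chromosome 7), had 1.21, 1.34 and 1.16 FPKM in stiff gels and 1.35, 1.81 and 1.99 FPKM in soft gels. These groups were separated only narrowly, at soft replicate 1, and Tshz3 was not called (log2 fold change -0.27 ± 0.11 SE, limma adjusted p = 0.185), although the authors' deposited table has it lower by -0.50 (q = 0.00783). Without soft replicate 1 Tshz3 was called (limma adjusted p = 0.038). Zfhx2 was also below its soft values in every stiff library, at 4.78, 4.23 and 4.29 FPKM in stiff gels and 4.86, 5.20 and 4.82 FPKM in soft gels (limma adjusted p = 0.350). Zfhx3, Zfhx4, Tshz1 and Tshz2 had log2 fold changes of -0.15, -0.14, -0.08 and 0.17, each with overlapping groups. In the annotation 65.2% of the exon bases of Tshz2 and 17.9% of those of Zfhx2 overlap a gene on the other strand. The library kit does not mark strand, so reads in the shared bases cannot be assigned to either gene of the pair.

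**Figure D2:**
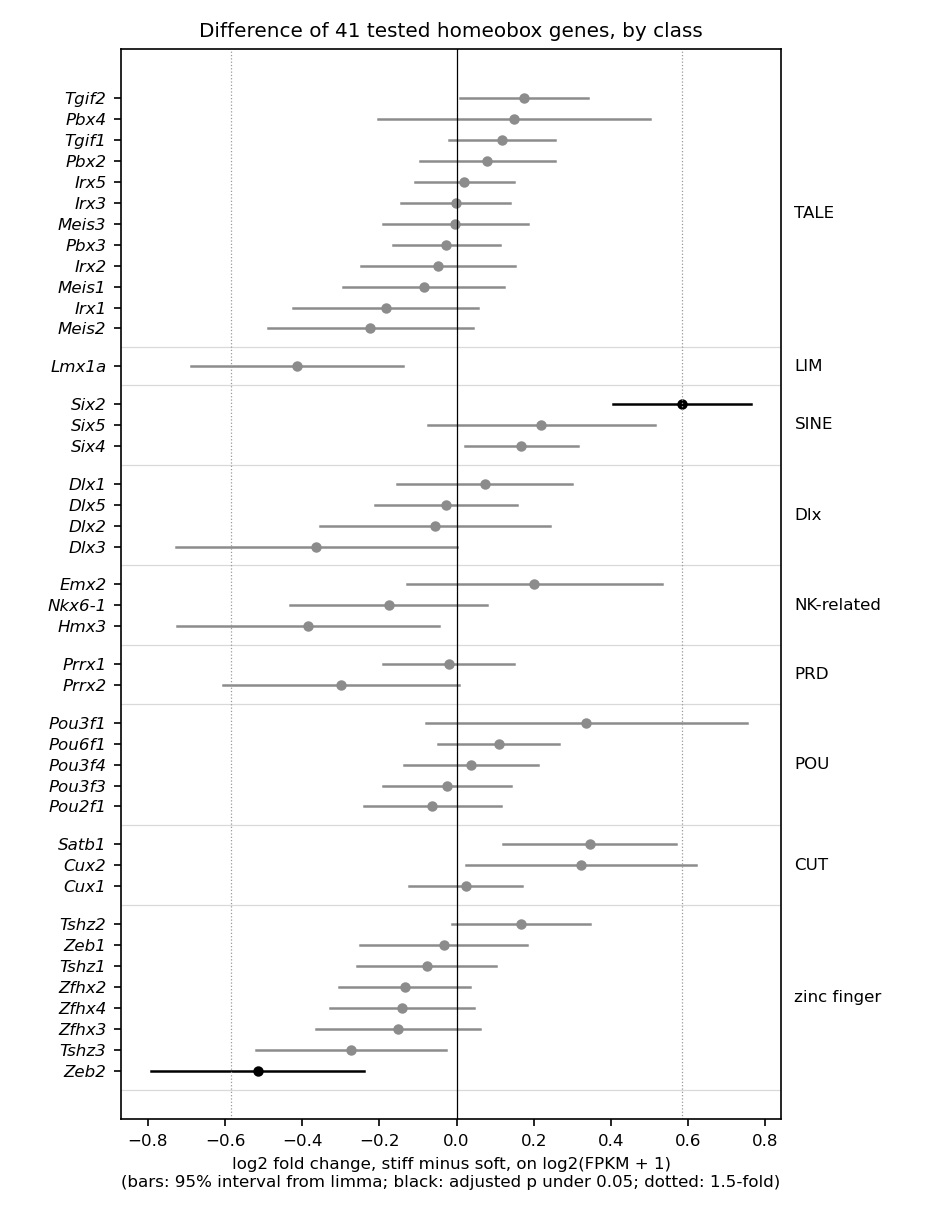
Log2 fold change (stiff minus soft, log2(FPKM + 1) scale) of 41 of the 42 tested homeobox genes with 95% intervals from limma, grouped by class; black marks genes with an adjusted p under 0.05 and dotted lines mark a 1.5-fold change. Six2 at 0.58 and Zeb2 at -0.52 stand out, and 33 of the intervals drawn lie wholly inside the dotted lines.

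The TALE class held the most abundant homeobox genes, and of its 13 tested members 0 were called (limma; the lowest adjusted p was 0.211 and 1 had an unadjusted p under 0.05). Irx3 (chromosome 8, 91798511 to 91801654), an Iroquois factor of regional patterning, had 110, 116 and 105 FPKM in stiff gels and 115, 108 and 108 FPKM in soft gels. Its log2 fold change was 0.00 ± 0.06 (SE), with a 95% interval from -0.14 to 0.14. Irx5 (chromosome 8, 92357796 to 92361456) had 60.6, 61.9 and 58.2 FPKM in stiff gels and 60.9, 58.8 and 58.4 FPKM in soft gels, a log2 fold change of 0.02 with an interval from -0.11 to 0.15. For both genes the stiff and soft libraries were interleaved and every library gave nearly the same value. They are neighbours in the genome, 556141 bases apart, and their ratio was steady as well: Irx3 over Irx5 was 1.83 ± 0.04 in stiff gels and 1.86 ± 0.03 in soft gels (SD, n = 3 each). Irx6, the next member along that stretch, was at 0.252 FPKM in stiff gels and 0.265 FPKM in soft gels, far below its neighbours. The other Iroquois pair, Irx1 and Irx2 (chromosome 13), was at 11.05 and 3.09 FPKM in stiff gels and 12.7 and 3.22 FPKM in soft gels.

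Among the Pbx genes, which encode partners of other homeodomain proteins, Pbx3 averaged 28.3 ± 0.86 FPKM in stiff gels and 28.9 ± 1.30 FPKM in soft gels, and Pbx2 averaged 26.0 ± 0.275 FPKM in stiff gels and 24.6 ± 2.47 FPKM in soft gels (SD, n = 3 each). Their intervals ran from -0.17 to 0.11 for Pbx3 and from -0.10 to 0.25 for Pbx2. The repressors Tgif1 and Tgif2, which limit TGF-beta signalling, had stiff values that were all above the soft values by a small margin. Tgif1 had 27.2, 29.2 and 28.9 FPKM in stiff gels and 26.8, 25.02 and 26.6 FPKM in soft gels (limma adjusted p = 0.312). Tgif2 had 12.9, 11.9 and 12.1 FPKM in stiff gels and 11.7, 10.1 and 10.5 FPKM in soft gels (log2 fold change 0.17, limma adjusted p = 0.211). In the annotation 56.7% of the exon bases of Tgif2 overlap a gene on the other strand, with the same limit as for Tshz2. The Meis genes were lower in level, with Meis2 at 3.52 ± 0.64 FPKM in stiff gels and 4.26 ± 0.52 FPKM in soft gels, and Meis1 at 1.41 ± 0.14 FPKM in stiff gels and 1.56 ± 0.15 FPKM in soft gels (SD, n = 3 each; limma adjusted p = 0.316 and 0.664).

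**Figure D3:**
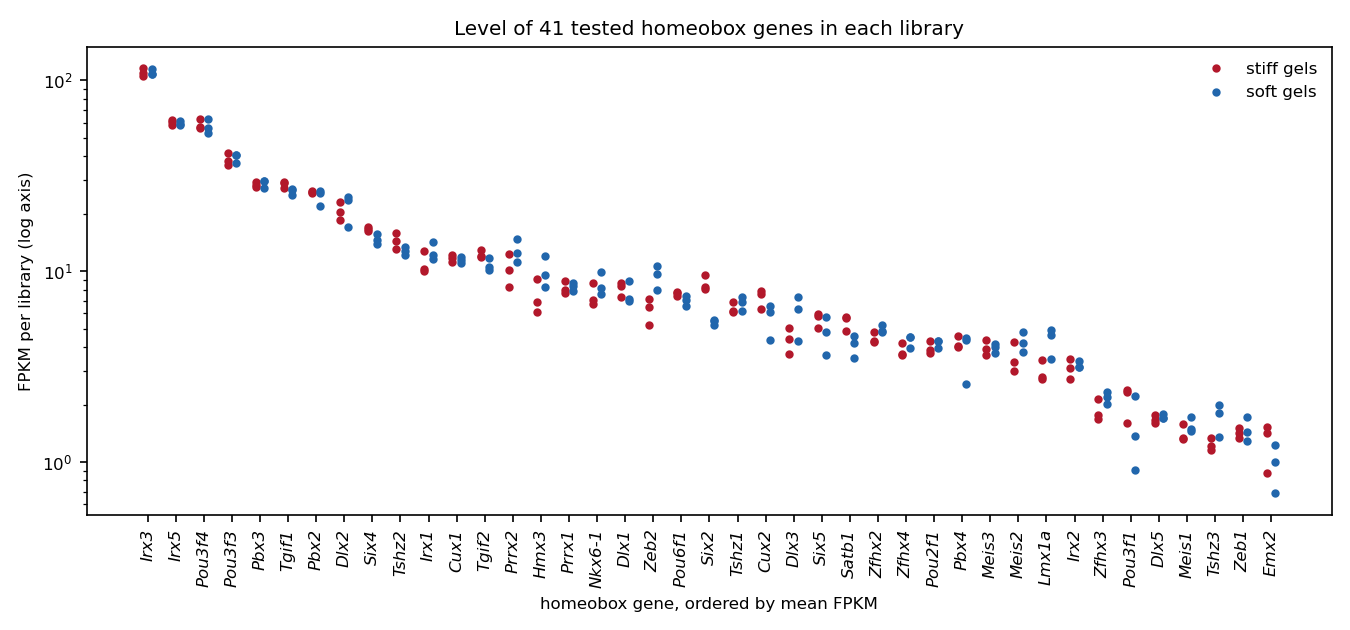
FPKM in each library (log axis) of 41 of the 42 tested homeobox genes, ordered by mean level, with stiff gels in red left of soft gels in blue. Levels run from about 110 FPKM for Irx3 to 1.27 FPKM in stiff gels and 0.972 FPKM in soft gels for Emx2, and for most genes the red and blue points overlap.

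In the POU class 5 of 9 listed genes were tested and 0 were called (limma; 0 had an unadjusted p under 0.05). Pou3f4, a factor of the otic mesenchyme whose loss causes deafness (chromosome X, 110814379 to 110819108), had 56.1, 62.4 and 57.1 FPKM in stiff gels and 52.9, 56.0 and 62.4 FPKM in soft gels. The ranges were nearly the same, and the log2 fold change of 0.04 had a 95% interval from -0.14 to 0.21. Pou3f3 (chromosome 1) had 37.9, 41.7 and 36.1 FPKM in stiff gels and 36.6, 40.5 and 40.6 FPKM in soft gels, with an interval from -0.19 to 0.14. Pou3f1, a factor of myelinating glia among other cells, had the widest spread relative to its mean among the 5 tested, with 2.33, 1.605 and 2.37 FPKM in stiff gels and 2.20, 0.910 and 1.37 FPKM in soft gels. It was not called (log2 fold change 0.34 ± 0.18 SE, limma adjusted p = 0.337) except without soft replicate 1, the highest soft library (0.0413). Pou4f3, the hair cell member, was not analysed here.

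Lmx1a, which patterns the otic vesicle and the non-sensory epithelium, was the 1 LIM gene of the name rule that was tested (chromosome 1, 167688230 to 167848741). It had 2.72, 2.80 and 3.44 FPKM in stiff gels and 4.603, 4.93 and 3.46 FPKM in soft gels. The groups did not overlap, but stiff replicate 3 and soft replicate 3 had almost the same value. The mean was 2.99 ± 0.39 FPKM in stiff gels and 4.33 ± 0.77 FPKM in soft gels (SD, n = 3 each), and the log2 fold change was -0.41 ± 0.12 SE (adjusted p = 0.0836 by limma). The authors' deposited table calls Lmx1a lower, by -0.57 (q = 0.00916), and the limma fit did so only without soft replicate 3 (0.0487) among 12 other fits. Hmx3, which acts with Hmx2 in the vestibular part of the ear (chromosome 7), had 9.10, 6.11 and 6.90 FPKM in stiff gels and 11.98, 9.50 and 8.29 FPKM in soft gels. These overlapped, and the log2 fold change was -0.39 ± 0.15 (SE; limma adjusted p = 0.174). With the replicate number as a block the limma adjusted p for Hmx3 was 0.0441, but whether the numbers pair the libraries is not known. Hmx2, which lies 2729 bases from Hmx3, was under the filter at 0.598, 0.679 and 0.683 FPKM in stiff gels and 0.866, 0.670 and 0.838 FPKM in soft gels.

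The CUT class held the next lowest adjusted p after the 2 called genes. Satb1, an organiser of chromatin loops (chromosome 17, 51736187 to 51833290), had 5.65, 4.88 and 5.77 FPKM in stiff gels and 4.55, 4.18 and 3.49 FPKM in soft gels. All stiff values were above all soft values. The log2 fold change was 0.35 ± 0.10 SE (adjusted p = 0.0783 by limma), and Satb1 was called without soft replicate 1 (0.0264) and with limma-voom on the rebuilt reads (0.0372). The authors' deposited table has Satb1 higher by 0.39 (q = 0.0118). Cux2 had 7.84, 6.33 and 7.62 FPKM in stiff gels and 6.53, 6.08 and 4.36 FPKM in soft gels, with overlap (limma adjusted p = 0.195), and Cux1 averaged 11.7 FPKM in stiff gels and 11.5 FPKM in soft gels.

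**Figure D4:**
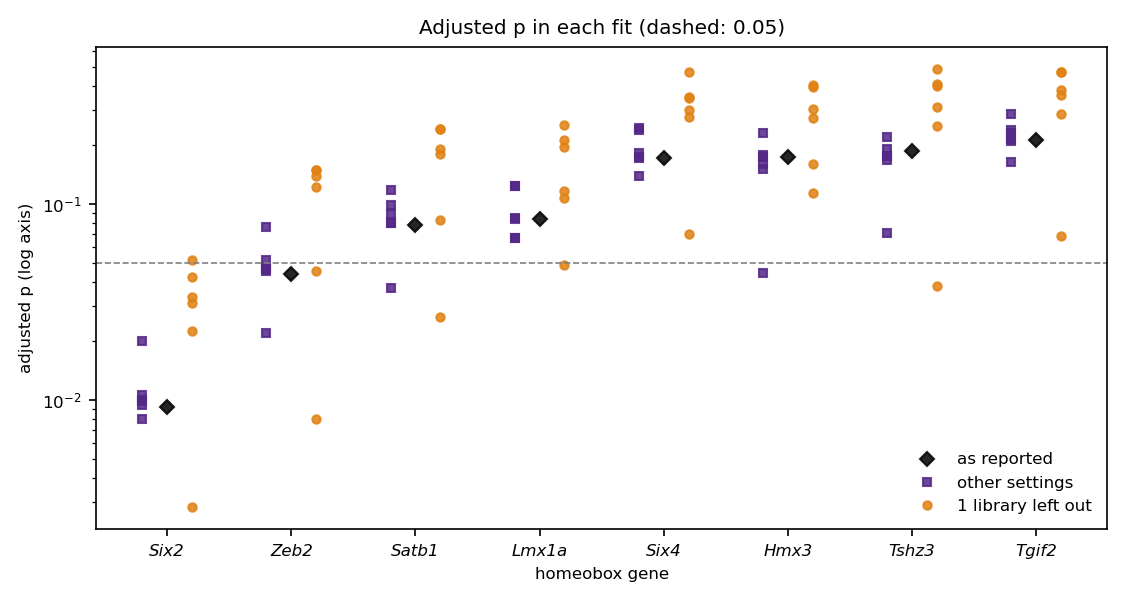
Adjusted p (log axis) of the 8 homeobox genes of the named set with the lowest p, in the fit as reported (black), in 6 fits that leave out 1 library each (orange) and in 6 fits with other settings (purple). Six2 lies under the dashed line at 0.05 in all but 1 fit, Zeb2 lies on both sides of it, and the other 6 genes lie mostly above it.

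Distal-less genes, which pattern the dorsal otic vesicle and craniofacial mesenchyme, had 4 of 5 listed members tested and 0 called (limma; 1 had an unadjusted p just under 0.05). Dlx3, a factor of epidermal and placodal ectoderm, had 4.41, 3.66 and 5.04 FPKM in stiff gels and 7.30, 6.34 and 4.33 FPKM in soft gels, where soft replicate 3 fell among the stiff libraries (log2 fold change -0.36 ± 0.16 SE, limma adjusted p = 0.230). Dlx1 and Dlx2 are 9426 bases apart on chromosome 2, and Dlx2 was the higher of the pair in every library, by a ratio of 2.56 ± 0.31 in stiff gels and 2.83 ± 0.51 in soft gels (SD, n = 3 each). Dlx5 was at 1.67 ± 0.08 FPKM in stiff gels and 1.72 ± 0.05 FPKM in soft gels, and rested on 31 to 37 reads per library. Dlx6 was not analysed here. In the PRD class, the mesenchymal factor Prrx1 had 7.68, 7.95 and 8.84 FPKM in stiff gels and 8.67, 7.85 and 8.34 FPKM in soft gels, with an interval from -0.19 to 0.15. Its relative Prrx2 had 12.3, 10.1 and 8.29 FPKM in stiff gels and 11.2, 14.7 and 12.4 FPKM in soft gels, with overlap (log2 fold change -0.30 ± 0.14 SE, limma adjusted p = 0.242). Nkx6-1 averaged 7.47 FPKM in stiff gels and 8.56 FPKM in soft gels.

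The intervals bound how far the uncalled genes could differ. For 34 of the 42 tested members (81.0%) the 95% interval lay wholly inside a 1.5-fold change either way on the log2(FPKM + 1) scale, against 90.1% of all tested genes. That scale understates fold changes in FPKM, the more so the lower the level. The bound is therefore looser than it looks for genes at a few FPKM or less. Among them are Satb1, Six5, Meis2, Pbx4, Emx2, Zeb1, Meis1 and Tshz3. A gene counted as inside can thus have an interval that passes 1.5-fold in FPKM. The 8 members outside were Six2, Zeb2, Lmx1a, Hmx3, Cux2, Dlx3, Prrx2 and Pou3f1. Groups did not overlap in 10 tested members (23.8%), against 25.9% of all tested genes. Of these, 6 were higher in stiff gels, where 15.5% of all tested genes were, and 4 were lower, where 10.4% were. By the q-values of the authors' deposited table, 5 of the 63 members were past 0.05 (7.94%), against 8.12% of all its genes. They were 2 higher members, Six2 and Satb1 (3.44% of all its genes were higher), and 3 lower members, Zeb2, Lmx1a and Tshz3 (4.68% were lower). Summed over the 63 members, the level was 608, 617 and 585 FPKM in stiff gels and 608, 601 and 591 FPKM in soft gels.

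The 21 members under the filter had means from 0.0293 to 0.722 FPKM and 0 to 52 reads per library, so small differences were not detectable at this depth. Only Hmx2 and Pou2f3 averaged at least 0.5 FPKM, and the next gene above the filter was Emx2. The HOX clusters, which set position along the body axis and are known to be silent in the most anterior tissues, have 39 annotated protein-coding genes, of which the table listed 1. That gene, Hoxa2, a factor of the hindbrain and second branchial arch, had 9, 10 and 7 reads in stiff gels and 11, 11 and 14 reads in soft gels, which is 0.284, 0.328 and 0.245 FPKM in stiff gels and 0.358, 0.346 and 0.441 FPKM in soft gels. The remaining HOX genes were not analysed here. Otx1 and Otx2, factors of the anterior brain and the ventral otic vesicle, averaged 0.0753 and 0.0208 FPKM in stiff gels and 0.0642 and 0.0378 FPKM in soft gels. Hopx, a small homeodomain protein without DNA binding, had 6, 6 and 3 reads in stiff gels and 5, 1 and 3 reads in soft gels. Gbx2, Barx1, Lhx2 and Lmx1b each had at most 11 reads in any library. In the annotation 43.5% of the exon bases of Gbx2 and 27.2% of those of Hopx overlap a gene on the other strand. The limit given for Tshz2 applies to them as well.

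Genes around the members were counted from 2 further lists. Of 22 genes for proteins that work with homeodomain factors (EYA, DACH, LDB, LMO, TLE, SSBP and CTBP families), 20 were tested, 0 rose and 2 fell, where 3.13% of all tested genes rose and 2.68% fell. Their median log2 fold change was 0.06, against 0.03 over all tested genes. The LIM-only gene Lmo2 fell to 40.3 ± 3.71 FPKM in stiff gels, against 58.2 ± 2.46 FPKM in soft gels (SD, n = 3 each; log2 fold change -0.52, limma adjusted p = 0.0103), and Ssbp4, a partner of LDB proteins, fell as well (log2 fold change -0.33, limma adjusted p = 0.0323). Eya1, whose protein partners SINE factors, had 53.3, 45.9 and 47.7 FPKM in stiff gels and 47.4, 40.2 and 39.0 FPKM in soft gels (limma adjusted p = 0.206). Of 73 other homeobox genes 34 were in the table and 19 were tested, with 1 higher and 2 lower (3.13% and 2.68% of all tested genes) and a median log2 fold change of 0.00. Isl1, a LIM-homeodomain factor of sensory precursors outside the name rule, had 32.5, 29.6 and 30.1 FPKM in stiff gels and 19.8, 17.2 and 12.9 FPKM in soft gels (log2 fold change 0.87, limma adjusted p = 0.0104). Msx2, a BMP target, fell by 0.66 on the log2 scale (limma adjusted p = 0.0104), and Meox1, a somite factor, fell by 0.81 (limma adjusted p = 0.0349).

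Markers of cell types moved with the gels in part, and their calls are to be read against the 3.13% of all tested genes that were higher and the 2.68% that were lower. Of 12 tested supporting and prosensory markers 6 were higher and 0 lower, with a summed level of 1013 to 1141 FPKM in stiff gels and 901.5 to 975.2 FPKM in soft gels, and of 6 tested glial markers 3 were higher and 0 lower, with 124 to 150 FPKM in stiff gels and 97.2 to 129 FPKM in soft gels. Of 10 tested mesenchyme markers 1 was higher and 0 lower, at 1334 to 1358 FPKM in stiff gels and 1174 to 1226 FPKM in soft gels. The mesenchyme markers differed in sign. Vim, Lum and Dcn made up most of that sum, with uncalled log2 fold changes of 0.06, 0.35 and 0.57. Twist2, Pdgfra and Tbx18 were also uncalled, at 0.39, 0.18 and 0.14, and the median of the tested mesenchyme markers was 0.16. Col3a1 went the other way, with 36.4, 44.5 and 24.4 FPKM in stiff gels and 43.4, 90.4 and 84.5 FPKM in soft gels, with overlap (log2 fold change -1.002, limma adjusted p = 0.074). Pdgfrb and Twist1 had log2 fold changes of -0.30 and -0.11 and were not called. Col1a2, under the filter, was at 0.161, 0.1003 and 0.119 FPKM in stiff gels and 0.508, 0.449 and 0.588 FPKM in soft gels, and Col1a1 was near 0 (0.0662 to 0.147 FPKM in stiff gels and 0.156 to 0.198 FPKM in soft gels). Their part in the differences of Six2 and Zeb2 was not tested, and in bulk RNA fewer cells of a type and less RNA per cell cannot be told apart. Epithelial markers were present, with uncalled differences of both signs. Epcam, Cdh1 and Krt18 are part of the supporting and prosensory list above and made up most of its summed level. Krt18 alone averaged 372 FPKM in stiff gels and 389 FPKM in soft gels. Epcam was at 250 to 279 FPKM in stiff gels and 210 to 251.5 FPKM in soft gels, with overlap (log2 fold change 0.23, limma adjusted p = 0.147). Cdh1, the gene of E-cadherin, was at 60.0, 50.4 and 55.9 FPKM in stiff gels and 64.9, 61.5 and 67.1 FPKM in soft gels, without overlap (log2 fold change -0.22, limma adjusted p = 0.130), and Krt18 had a log2 fold change of -0.07 (0.716). Hair cell markers were mixed, with Myo6, which other epithelia also express, at 22.3 to 24.97 FPKM in stiff gels and 20.7 to 22.5 FPKM in soft gels, and Otof, the hair cell synaptic gene, at most at 0.0277 FPKM in stiff gels and 0.0465 FPKM in soft gels. Markers of neurons (4 tested), immune cells (1 tested) and hair cells (4 tested) had 0 calls (limma), and of 4 tested endothelial markers Kdr was lower, while Pecam1 was at most at 0.0745 FPKM in stiff gels and 0.134 FPKM in soft gels. Emcn made up most of the endothelial sum, at 326 to 406 FPKM in stiff gels and 366 to 423 FPKM in soft gels. It was not called (log2 fold change -0.16, limma adjusted p = 0.407), nor was Tek (0.11, limma adjusted p = 0.543). The median log2 fold change of the endothelial markers was -0.17. Depth was 16108470 to 17899391 reads per library, counted over the listed genes, and on the first principal component the stiff libraries lay at 7.89 to 17.3, while soft replicate 1, at -1.94, was nearer to them than soft replicates 2 and 3 were, at -16.1 and -18.9.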

How the data were processed

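The deposited table gives 1 value per gene and library. The authors' unit was read from these values as FPKM, since the columns summed to between 383716 and 403143, differed in their totals, and 1 read was worth a different amount in each gene. Per the submitters' processing notes, reads were aligned with TopHat2 2.1.1 to mm10 and DESeq2 was used. How reads were counted, and on which annotation, is not given in the sources used here. Per the file headers, the table also holds a base mean (a signal on the scale of normalized counts) and the authors' own log2 fold change, its error, a test score, a ratio, a p-value and a q-value.

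Whole reads were recovered from FPKM and base mean for 100.0% of values within 0.05 reads, and a simulation over 15016 genes returned 100.0% of its counts. Genes averaging at least 1 FPKM in either group were tested with limma 3.58.1 (R 4.3.3; eBayes with trend) on log2(FPKM + 1), stiff minus soft. On data simulated for this comparison (11689 genes), 89.0% of genes changed 1.5-fold and 100% changed 2-fold were called, with 18 unchanged genes among 207 calls. The simulated noise was independent between genes, alike for genes of a similar level and without shifts shared by a whole library. These shares can therefore overstate what the test finds in the real libraries. Alternatives were another pseudocount or filter, median-ratio scaling, a replicate block, limma-voom on rebuilt reads and leaving out each library.

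Members and lists were chosen with earlier results of these data known. The rule for named genes took called members, the lowest p in each class, the 8 highest levels, a fixed set with known ear or mesenchyme roles and members with an authors' q under 0.05; other names were chosen after their values were seen. Coordinates and promoter windows are from RefSeq (GRCm38.p6; 63 members matched, 45 with a window), exon overlaps from GENCODE M21. The CCAAT letters were added after the windows were read. Counts and floors cover counting error only. Some genes of the table are counted in the totals but not reported here by name.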

Additional observations from a re-analysis of the deposited data

How the results depend on the processing

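Calls among the homeobox genes were few, and they changed with single libraries, that of Six2 least. With 1 library left out at a time, the members called higher in stiff gels numbered 0 to 3 and those called lower 0 to 2, and over all tested genes 50 to 860 were higher and 15 to 767 lower, the most without soft replicate 1 and the fewest without soft replicate 2. Six2 kept its call in all fits but the one without soft replicate 2, and its log2 fold change stayed between 0.51 and 0.67. Zeb2 stayed between -0.62 and -0.41. Without the filter on low values 0 members were called lower, and limma-voom on rebuilt reads called 2 members higher (Six2 and Satb1). With the replicate block 381 genes were higher and 329 lower over all tested genes, and Hmx3 was called in place of Zeb2. Deviations of same-numbered libraries from their group means correlated at 0.00873, 0.219 and -0.211. The deviations within a group are tied to each other, so these values cannot tell whether the numbers pair the libraries. Members with differences near 0 changed sign without being called: Irx5 with median-ratio scaling (-0.0085), which shifted the median of all genes by -0.0259, and, with 1 library left out, Irx3 (-0.0379 to 0.0304), Pbx2 (-0.0021 to 0.1305), Pou3f3 (-0.0814 to 0.0206), Pou3f4 (-0.0153 to 0.1018), Prrx1 (-0.0742 to 0.0166) and Zeb1 (-0.0899 to 0.0331). The cause was not tested. Depth limits the 21 members under the filter.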
